A study of Mus musculus with 12 samples.

Results

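The genes described here are 46 genes of DNA replication and mitosis, measured in mouse bone marrow. They were chosen from a list of 47 symbols, each matched to the deposited expression table through array rows annotated with exactly 1 symbol. The row with the highest mean was used where a gene had several rows. Of the 46 genes, 22 act in S phase and 24 in mitosis, out of 19938 genes measured in all, and Ccnb1 was not analysed here. The study used 12 microarrays to measure RNA of whole marrow, flushed out of long bones of B6 mice aged 16 days, 3 in each of 4 groups. Nonirradiated mice were given vehicle or PTH (parathyroid hormone, which raises bone formation when injected intermittently). Irradiated mice had a sub-lethal dose, 2 fractions of 310 cGy at 10 days of age, and then vehicle or PTH. All groups were dosed for 5 days, from day 11 to day 15, and for irradiated mice the first dose came 24 hours after irradiation. The labels name no transgene or deletion in any group. Whether each array holds its own mouse, a pool, or RNA shared with another array is not stated in the labels. All p-values therefore measure only the spread between these arrays, which may in part be technical.

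Cells copy their DNA in S phase and divide it in mitosis, and both steps are driven by genes that are transcribed in waves. Before S phase, licensing proteins load the MCM helicase onto origins, and E2F transcription factors raise the genes of the helicase, of nucleotide supply and of DNA synthesis. Later in the cycle the MuvB complexes, which read a promoter element called the CHR, raise the genes of kinases, kinetochores and the spindle. Bone marrow holds dividing precursors of red cells, neutrophils and lymphocytes, so the level of these genes in whole marrow depends on which precursors are present and how many of them are cycling.

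Promoters of the members were read from RefSeq's table of GRCm38.p6, as 300 bases on the gene's strand from 250 before the start to 50 after it. Of the 46 genes, 39 had an entry, with 43 promoters, and Aurkb, Ccna2, Gins1, Gins2, Kif20a, Mcm4 and Tpx2 had none. Both strands were searched for the E2F words TTTGGCGC, TTTCGCGC, TTTCCCGC and TTTGCCGC, for the CHR words TTTGAA and TTCGAA, and for CCAAT, the box read by NF-Y. An E2F word stood in 8 of 22 S-phase promoters (36.4%), 1 of 21 mitotic promoters (4.76%) and 2.26% of all 32851 promoters. A CHR word stood in 4 S-phase promoters (18.2%), 17 mitotic promoters (81.0%) and 19.2% of all promoters. CCAAT stood in 15 S-phase promoters (68.2%), 17 mitotic promoters (81.0%) and 37.4% of all promoters. A CHR word together with at least 2 CCAAT boxes stood in 10 mitotic promoters (47.6%), 2 S-phase promoters (9.09%) and 2.31% of all. These matches describe letters, and are not evidence of binding in marrow. A pair from each group is printed, 5′ to 3′, with E2F, CHR and CCAAT words of either strand in capitals. These examples are not typical of their lists. Most S-phase promoters held no E2F word, while both printed ones do, and Top2a holds the most CHR and CCAAT words of the members. In both Mcm promoters an E2F word of one strand overlaps one of the other strand.
Mcm5 (chr8:75109259-75109558, plus strand): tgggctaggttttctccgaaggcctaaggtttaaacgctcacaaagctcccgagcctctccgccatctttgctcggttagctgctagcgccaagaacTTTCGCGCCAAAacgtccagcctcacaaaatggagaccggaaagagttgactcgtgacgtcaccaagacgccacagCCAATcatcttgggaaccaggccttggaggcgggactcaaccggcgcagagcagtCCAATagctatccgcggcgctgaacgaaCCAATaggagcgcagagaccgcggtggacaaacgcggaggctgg
Mcm6 (chr1:128359656-128359955, minus strand): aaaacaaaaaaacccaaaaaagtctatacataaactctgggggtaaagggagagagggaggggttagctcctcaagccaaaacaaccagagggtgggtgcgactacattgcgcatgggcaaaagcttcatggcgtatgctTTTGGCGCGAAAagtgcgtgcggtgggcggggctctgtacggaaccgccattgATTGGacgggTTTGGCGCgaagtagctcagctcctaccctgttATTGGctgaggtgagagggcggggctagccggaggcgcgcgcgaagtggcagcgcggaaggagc
Cdk1 (chr10:69352863-69353162, minus strand): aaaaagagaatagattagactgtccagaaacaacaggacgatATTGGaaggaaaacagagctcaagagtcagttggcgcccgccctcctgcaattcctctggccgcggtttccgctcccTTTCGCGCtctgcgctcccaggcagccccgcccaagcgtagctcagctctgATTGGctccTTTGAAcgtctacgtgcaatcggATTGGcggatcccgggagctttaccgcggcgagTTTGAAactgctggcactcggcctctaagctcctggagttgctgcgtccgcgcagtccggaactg
Top2a (chr11:99024140-99024439, minus strand): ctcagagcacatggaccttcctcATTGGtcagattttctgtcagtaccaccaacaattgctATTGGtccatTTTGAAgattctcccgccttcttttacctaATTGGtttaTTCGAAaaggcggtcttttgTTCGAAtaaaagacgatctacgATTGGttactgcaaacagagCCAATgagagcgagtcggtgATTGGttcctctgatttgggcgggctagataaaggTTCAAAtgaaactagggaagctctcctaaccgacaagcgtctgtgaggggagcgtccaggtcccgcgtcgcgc

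Mcm5 and Mcm6, which encode subunits of the MCM helicase, hold E2F words and CCAAT and no CHR word. Top2a, which encodes the topoisomerase that untangles chromosomes, holds 4 CHR words and 6 CCAAT boxes and no E2F word. Cdk1, which encodes the kinase that starts mitosis, was the mitotic gene with an E2F word, and it also holds 2 CHR words.

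All values below are log2 expression values from the deposited table, where a difference of 1 is 2-fold. The number of arrays limits their precision: over all genes, a 2-group difference had a median SE of 0.166. A pair of arrays, replicate 3 of nonirradiated vehicle and replicate 3 of irradiated PTH, stood apart by a narrow range of values, with interquartile ranges of 2.86 and 2.88 against 3.13 to 3.25 on the other arrays. By Xist and Y-linked genes, 0 of 3 nonirradiated vehicle arrays, 3 of 3 nonirradiated PTH arrays and 1 of 3 arrays in each irradiated group had the female pattern. PTH and sex therefore cannot be told apart in nonirradiated mice. The share of female-pattern arrays also differed between irradiated and nonirradiated mice within each treatment. Irradiation and the interaction are therefore partly mixed with sex. In each irradiated group the female-pattern array was replicate 1. Sex did not vary within either nonirradiated group, so a term for sex is estimated from the irradiated groups alone. The tissue was marrow with B-lineage cells by its markers: the mean of 10 B cell genes lay between 9.22 and 9.82 in the 6 nonirradiated arrays and between 6.74 and 7.52 in the 6 irradiated arrays.

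None of the 46 replication and mitosis genes passed the test in any of 6 contrasts. The contrasts were irradiation in each treatment, PTH in each irradiation state, irradiation averaged over treatments, and the interaction of irradiation and PTH. With limma and Benjamini-Hochberg adjustment over all 19938 genes, at an adjusted p under 0.05, 2.22% of all genes were called for irradiation in vehicle mice, 2.43% for irradiation in PTH mice and 6.1% for irradiation averaged over treatments. The share called was 0.0% for PTH in nonirradiated mice, 0.0% for PTH in irradiated mice and 0.0% for the interaction. At an unadjusted p under 0.05 in the limma fit, the members past it numbered 3 for irradiation in vehicle mice, 1 in PTH mice, 1 averaged over treatments, 0 and 1 for PTH in nonirradiated and irradiated mice, and 1 for the interaction. Over all genes these shares were 13.3%, 13.4%, 17.3%, 1.79%, 3.81% and 5.49%. These counts of members moved with single arrays. Over the 12 fits that leave out 1 array they ran, in the same order, from 1 to 8, 0 to 7, 0 to 5, 0 to 1, 0 to 15 and 0 to 14. The highest counts came without irradiated PTH replicate 3 for irradiation in vehicle mice and averaged over treatments, without nonirradiated vehicle replicate 2 for PTH in nonirradiated mice, and without irradiated PTH replicate 1 in the others. In those same fits the shares of all genes were, in the same order, 17.2%, 15.1%, 18.7%, 4.53%, 8.63% and 8.95%. Because whole marrow was measured, fewer cycling cells and less RNA of these genes per cell cannot be told apart.

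The mean of the 22 S-phase genes was 9.83, 9.88 and 9.47 in nonirradiated vehicle arrays, 9.80, 9.85 and 9.82 with PTH, 9.95, 10.02 and 9.96 in irradiated vehicle arrays, and 10.06, 9.72 and 9.45 in irradiated PTH arrays. The 3 irradiated vehicle arrays were above all nonirradiated arrays, while the irradiated PTH arrays ran from the highest of the 12 to the lowest. The mean of the 24 mitotic genes was 10.57, 10.49 and 10.34, then 10.45, 10.39 and 10.51, then 10.37, 10.64 and 10.56, and last 10.69, 10.50 and 10.47, in the same order. The mitotic means of the 4 groups overlapped.

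**Figure D1:**
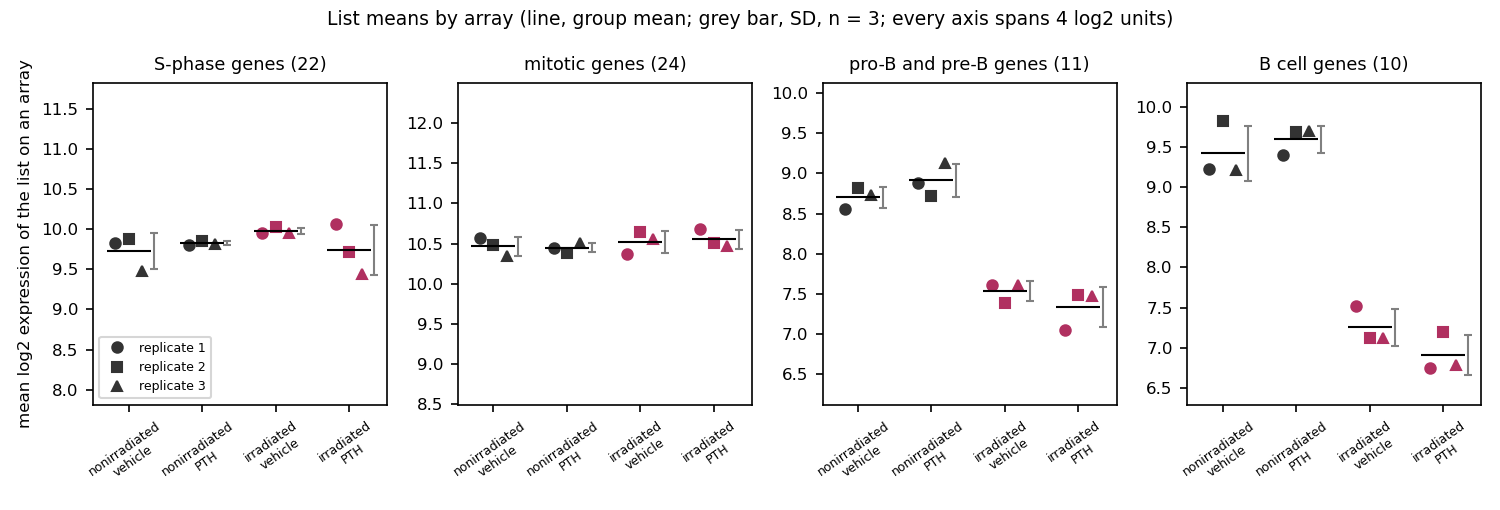
Each point is the mean log2 expression of a gene list on 1 array, by group, with the group mean as a line and its SD (n = 3) as a grey bar; the panels show the member lists and marker lists of other cells on axes of equal span. The S-phase and mitotic lists stay within a narrow band, while the B-lineage lists separate irradiated from nonirradiated arrays.

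In irradiated vehicle mice the S-phase genes lay slightly above those of nonirradiated vehicle mice, although no single gene passed the test. Of 22 S-phase genes, 21 had a higher mean after irradiation, with a median difference of 0.28, against 45.4% of all genes and a median of -0.03. Pola1, the catalytic subunit of DNA polymerase alpha, was the exception, at -0.18 (95% interval -0.73 to 0.37). The median for S-phase genes was 0.15 without nonirradiated vehicle replicate 3, which was the lowest of the nonirradiated vehicle arrays, 0.13 with sex as a term and 0.20 after quantile normalization was repeated. It was 0.11 with arrays centred on 10 housekeeping genes, where the median of all genes was -0.19. The housekeeping genes themselves had a median difference of 0.18.

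All 11 licensing and helicase genes, which load the MCM helicase and start it, had higher means in this contrast, with a median difference of 0.31. Their mean was 9.49, 9.65 and 9.18 in nonirradiated vehicle arrays and 9.76, 9.76 and 9.66 in irradiated vehicle arrays. Part of the difference thus rests on the third nonirradiated array, which was also the lowest of its group for Mcm3, Mcm4 and Mcm5. Mcm5 was 9.46, 9.55 and 8.93 in nonirradiated vehicle arrays and 9.68, 9.69 and 9.61 in irradiated vehicle arrays. The groups did not overlap, and the third nonirradiated array was well below the other two. The difference was 0.35 (SE 0.16, limma adjusted p = 0.377), and 0.16 without that array. Mcm3, another helicase subunit, was 9.67, 9.89 and 9.44 against 10.14, 10.18 and 9.98. The irradiated arrays were all higher, by 0.43 (95% interval 0.02 to 0.84, limma adjusted p = 0.349). Mcm4 was 10.64, 10.42 and 10.29 against 10.73, 10.79 and 10.73, also without overlap. Its difference was 0.30 (95% interval -0.03 to 0.63). Mcm6 was the steadiest of the helicase genes, at 10.86, 10.75 and 10.69 against 10.80, 10.85 and 10.79, a difference of 0.05 (95% interval -0.17 to 0.28). Mcm2 was 9.75, 10.67 and 10.10 against 10.89, 10.58 and 10.12, and the groups overlapped widely (0.36, 95% interval -0.50 to 1.22). Cdt1 and Gins2, a licensing factor and a subunit of the helicase cofactor GINS, also overlapped, with differences of 0.31 and 0.43.

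Chaf1a, which encodes the large subunit of the histone chaperone CAF-1, had the smallest p of the members in this contrast. It was 8.54, 8.57 and 8.03 in nonirradiated vehicle arrays and 8.73, 8.75 and 9.11 in irradiated vehicle arrays. The groups did not overlap, and again nonirradiated vehicle replicate 3 was lowest. The difference was 0.48 (95% interval 0.14 to 0.83, unadjusted p = 0.010, limma adjusted p = 0.171), and 0.31 without that array. Tyms, which makes the nucleotide dTMP, was 10.16, 10.20 and 9.85 against 10.32, 10.28 and 10.30. Fen1, which trims Okazaki fragments, was 7.75, 7.81 and 7.38 against 7.96, 8.02 and 8.02. Both were apart between the groups, with differences of 0.23 and 0.35, and of 0.12 and 0.22 without nonirradiated vehicle replicate 3. Pcna, the sliding clamp of DNA polymerases, was 12.46, 12.21 and 12.27 against 12.07, 12.42 and 12.48, and the groups overlapped, with a difference of 0.01 (95% interval -0.32 to 0.34). Rrm2, the regulated subunit of ribonucleotide reductase, was 11.76, 11.71 and 11.34 against 11.81, 11.96 and 11.59, again overlapping. Of the 22 S-phase genes, 6 had groups that did not overlap, all higher after irradiation: Chaf1a, Fen1, Mcm3, Mcm4, Mcm5 and Tyms. Of all genes, 8.95% were apart in that direction.

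Among mitotic genes in vehicle mice 13 of 24 were higher after irradiation, with a median difference of 0.02. Leaving out 1 array at a time moved this median between -0.06 and 0.16. Kif11, the motor that separates spindle poles, was 11.39, 11.21 and 11.39 in nonirradiated arrays and 10.87, 11.19 and 10.998 in irradiated arrays. All irradiated arrays were lower, by 0.31 (95% interval -0.60 to -0.03, limma adjusted p = 0.319). Aurka, a kinase of the spindle poles, was 9.89, 10.09 and 9.93 against 10.27, 10.43 and 10.42. The groups did not overlap, and irradiated arrays were higher by 0.40 (95% interval -0.10 to 0.90, limma adjusted p = 0.509). Kif23, a motor of cytokinesis, was the remaining mitotic gene whose groups were apart, at -0.18. With Kif11 it made 2 of 46 members apart and lower, where 9.83% of all genes were. Cdc20, which activates the ubiquitin ligase that ends mitosis, was 8.89, 9.53 and 8.99 against 9.56, 9.48 and 9.58. The second nonirradiated array lay among the irradiated ones (0.41, SE 0.19). Plk1, a kinase of mitotic entry, was 9.59, 10.22 and 9.69 against 10.64, 10.36 and 9.89, with overlap and a difference of 0.47 (SE 0.24, limma adjusted p = 0.452), or 0.29 without irradiated vehicle replicate 1. In both lists together, groups were apart for 9 of 46 members, where 18.8% of all genes were.

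**Figure D2:**
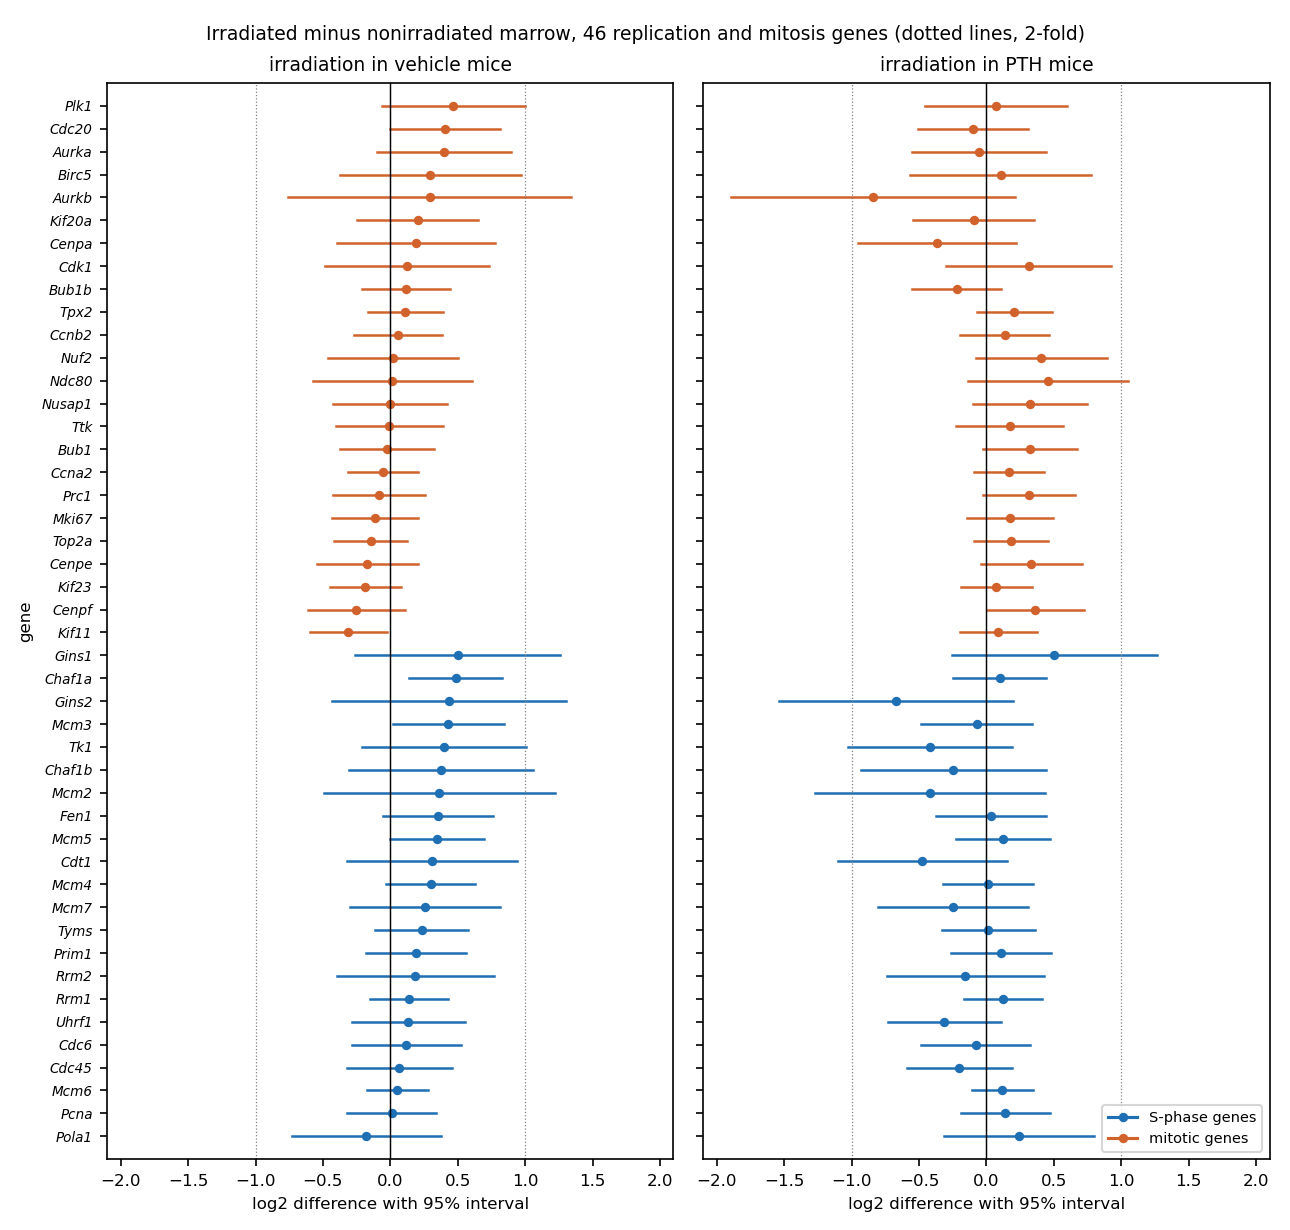
Points are log2 differences of irradiated minus nonirradiated mice for each member, with 95% intervals, in vehicle mice and in PTH mice; colours separate S-phase from mitotic genes and dotted lines mark 2-fold. In vehicle mice 40 of 46 intervals lie within 2-fold (88.2% of all genes), and in PTH mice 39 (86.6% of all genes).

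In PTH mice the S-phase genes lay on both sides of 0 after irradiation, and several kinetochore and spindle genes were slightly higher. The S-phase median was -0.03, with 11 of 22 genes higher, and the mitotic median was 0.17, with 18 of 24 higher; over all genes, 51.3% were higher and the median was 0.01. Without irradiated PTH replicate 3 the S-phase median was 0.09, and the mitotic median was unchanged to 2 decimals. Single members did move without that array: 10 of 22 S-phase and 10 of 24 mitotic differences shrank by more than 1.5 times, and a further 6 and 4 turned sign. Cenpf, a kinetochore protein of late cycle, was 10.41, 10.10 and 10.39 in nonirradiated PTH arrays and 10.59, 10.45 and 10.96 in irradiated PTH arrays. The irradiated arrays were all higher, by 0.36 (95% interval 0.00 to 0.73, limma adjusted p = 0.370). Prc1, which crosslinks microtubules of the spindle midzone, was 10.18, 10.17 and 10.18 against 10.50, 10.22 and 10.77, and was higher in each irradiated array. Its difference was 0.32 (95% interval -0.02 to 0.66, limma adjusted p = 0.409). Without irradiated PTH replicate 3 the difference was 0.22 for Cenpf and 0.18 for Prc1. Bub1, a kinase of the spindle checkpoint, was 10.60, 10.28 and 10.63 against 10.94, 10.69 and 10.86, and also did not overlap (0.32, 95% interval -0.03 to 0.67). Top2a was 11.66, 11.63 and 11.69 against 11.81, 11.72 and 12.00, apart by 0.18 (95% interval -0.09 to 0.46), and by 0.10 without that replicate. Ccna2, the cyclin of S phase and mitotic entry, was the fifth with groups apart. In total 5 of 46 members were apart, all mitotic and higher after irradiation, where 8.93% of all genes were apart in that direction and 19.8% in either.

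Other mitotic genes overlapped between irradiated and nonirradiated PTH mice. Cdk1 was 8.83, 8.68 and 9.07 against 8.99, 8.84 and 9.69, with overlap (0.31, 95% interval -0.30 to 0.92), and the difference was 0.05 without irradiated PTH replicate 3. Mki67, the proliferation antigen Ki-67, was 12.14, 12.33 and 12.08 against 12.42, 12.36 and 12.28, which overlapped, with a difference of 0.17 (95% interval -0.15 to 0.49). Nuf2, an Ndc80 complex subunit, was 10.54, 10.10 and 10.64 against 10.83, 10.60 and 11.07. Cenpe, a kinetochore motor, was 10.63, 10.29 and 10.67 against 10.81, 10.62 and 11.17. Both overlapped, with differences of 0.41 and 0.33. Cenpe differed by 0.18 without irradiated PTH replicate 3, and Nuf2 by 0.24 without nonirradiated PTH replicate 2. Among the S-phase genes Gins2 had the smallest p, at 10.11, 10.38 and 10.10 against 10.34, 9.94 and 8.31. Cdt1 was 7.61, 8.004 and 7.47 against 7.76, 7.35 and 6.55. For both genes the groups overlapped and irradiated PTH replicate 3 was the lowest of the 12 arrays. The differences were -0.67 (95% interval -1.54 to 0.20) and -0.47 (95% interval -1.10 to 0.15). Without irradiated PTH replicate 3 they were -0.06 and -0.14. Uhrf1, which binds hemimethylated DNA at replication forks, was 10.54, 10.48 and 10.49 against 10.56, 10.20 and 9.80, with overlap and a difference of -0.31 (95% interval -0.73 to 0.11), or -0.12 without that array.

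No replication or mitosis gene passed the test for PTH in nonirradiated mice, where 43 of 46 intervals lay within 2-fold, as did 95.1% of all genes. The S-phase median was 0.11 and the mitotic median -0.07. A term for sex turned the S-phase median to -0.18, and removing replicate 3 of nonirradiated vehicle turned it to -0.04. The sex term carries over a difference estimated in irradiated mice, so it cannot separate PTH from sex here. Tk1, the salvage kinase for thymidine, was 8.82, 9.40 and 8.63 with vehicle and 9.05, 9.52 and 9.28 with PTH, with overlap and a difference of 0.33 (95% interval -0.28 to 0.94). Bub1b, the checkpoint kinase BubR1, was 9.77, 9.86 and 9.41 against 9.95, 9.88 and 9.87, without overlap. Its difference was 0.22 (95% interval -0.11 to 0.55). The steadiest helicase gene, Mcm6, was 10.73, 10.65 and 10.58 with PTH, below the vehicle mean by 0.11 (95% interval -0.34 to 0.11). Mki67 was 12.19, 12.38 and 12.59 with vehicle against 12.14, 12.33 and 12.08 with PTH, with overlap and a difference of -0.21 (95% interval -0.53 to 0.11). Kif11 was 11.21, 10.94 and 11.26 with PTH, overlapping its vehicle values, with a difference of -0.19 (95% interval -0.48 to 0.09). Mcm6, Mki67 and Kif11 thus differed by less than 2-fold over their whole intervals, while the intervals of Aurkb, Gins2 and Mcm2 reached 2-fold. Prc1 was lower with PTH in all 3 arrays, by 0.22 (95% interval -0.56 to 0.12), from values of 10.55, 10.42 and 10.22 with vehicle. Bub1b and Prc1 were the 2 members with groups apart, where 6.84% of all genes were.

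**Figure D3:**
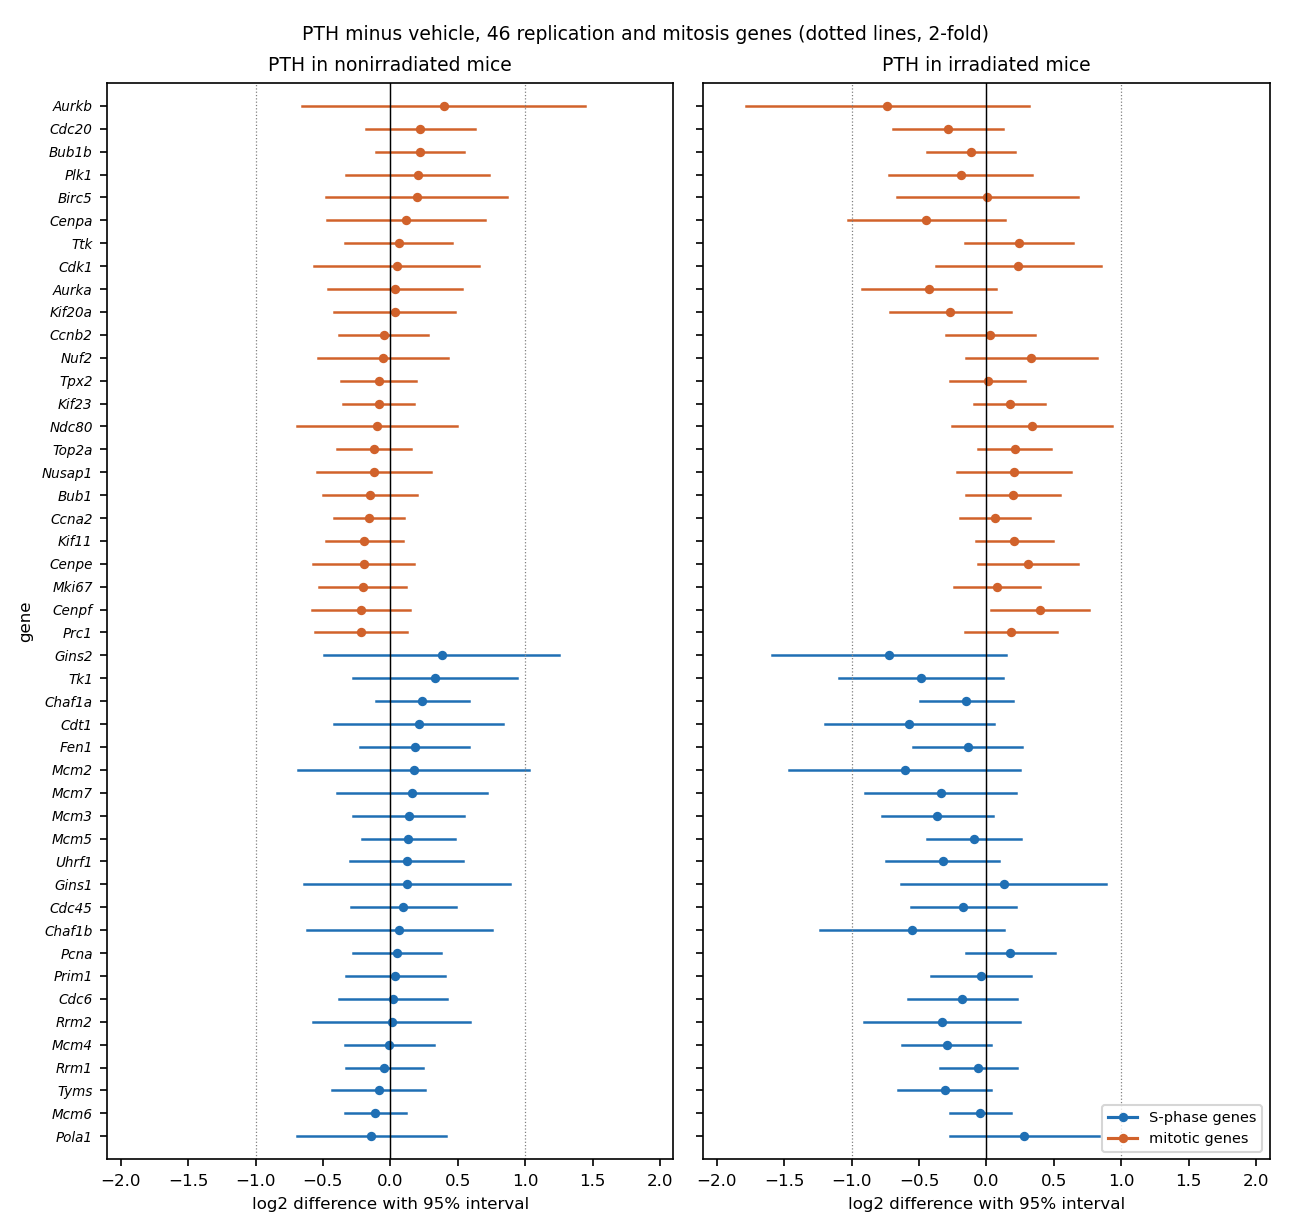
Points are log2 differences of PTH minus vehicle for each member, with 95% intervals, in nonirradiated and irradiated mice; colours separate S-phase from mitotic genes and dotted lines mark 2-fold. Each gene's interval has the same width in both panels. The lowest points of the irradiated panel are Aurkb at -0.74 and Gins2 at -0.72.

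In irradiated mice PTH-treated arrays had lower S-phase values on average, with a median of -0.24 and 3 of 22 genes higher, while the mitotic median was 0.13 with 17 of 24 higher. Without irradiated PTH replicate 3 these medians were -0.12 and 0.08. The median of all genes, with every array kept, was 0.01. Groups were apart for 0 of 46 members, where 9.73% of all genes were, and 39 of 46 intervals lay within 2-fold, where 91.5% of all genes did. Aurkb, the kinase of the chromosomal passenger complex, was 10.82, 10.91 and 10.47 with vehicle and 10.94, 10.58 and 8.48 with PTH. The third PTH array was far below all others, and the first was above all vehicle arrays. Its difference was -0.74 (95% interval -1.79 to 0.31, limma adjusted p = 0.844), and 0.03 without that array. Cdt1 was 8.03, 7.79 and 7.56 with vehicle, against 7.76, 7.35 and 6.55 with PTH, and differed by -0.57 (95% interval -1.20 to 0.06). Tyms was 10.32, 10.28 and 10.30 with vehicle, against 10.33, 9.88 and 9.77 with PTH (-0.31, 95% interval -0.65 to 0.04). Mcm4 was 10.73, 10.79 and 10.73 against 10.79, 10.38 and 10.20 (-0.29, 95% interval -0.62 to 0.04). For Cdt1, Tyms and Mcm4 the first PTH array lay at or above part of the vehicle group, and the other two PTH arrays lay lower. Cenpf was 10.07, 10.52 and 10.22 with vehicle, against 10.59, 10.45 and 10.96 with PTH, with overlap. Its difference of 0.40 (95% interval 0.04 to 0.76) was the single one past an unadjusted p of 0.05, at 0.0337. It was 0.25 (unadjusted p = 0.146 in limma) without irradiated PTH replicate 3. Aurka was 10.27, 10.43 and 10.42 against 10.50, 10.03 and 9.32, an overlap that covered the whole vehicle group, with a difference of -0.42 (95% interval -0.92 to 0.07). Without irradiated PTH replicate 3 the differences were -0.24 for Cdt1, -0.20 for Tyms, -0.17 for Mcm4 and -0.11 for Aurka. Without irradiated PTH replicate 1, the highest of the group for these 4 genes, they were larger, at -0.84, -0.48, -0.46 and -0.70. In that fit 15 members were past an unadjusted p of 0.05, where 8.63% of all genes were. The array removed was the only one of its group with the female pattern, while the vehicle group kept its female-pattern array.

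Deviations of same-numbered arrays of the irradiated groups correlated at 0.45, 0.14 and 0.57, although no label ties them. Irradiated vehicle replicate 1 and irradiated PTH replicate 2, of unlike number, correlated at 0.40. Both replicate 1 arrays, and no other irradiated array, had the female pattern, so number and sex cannot be told apart in that pair. Cdt1, Gins2, Mcm2 and Mcm3 among S-phase genes, and Cdc20, Cenpa, Kif20a and Plk1 among mitotic genes, were lower with PTH in all 3 same-numbered pairs. These 8 of 46 members stand beside 16.4% of all genes. No member was higher with PTH in all 3 pairs, where 16.8% of all genes were. That count rests on the second pair alone, in which every member was lower with PTH, from -0.0014 for Ttk to -0.60 for Fen1. For Cdt1 the paired differences were -0.26, -0.44 and -1.01, and for Gins2 they were -0.05, -0.39 and -1.72. A fit of the irradiated groups alone with the replicate number as a block called 0 members by limma, the lowest adjusted p being 0.507. At an unadjusted p under 0.05 it had 5 members, Cdt1, Chaf1b, Gins2, Mcm2 and Mcm3, where 9.73% of all genes passed.

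Irradiation averaged over both treatments left no member past the test, with medians of 0.07 for S-phase and 0.09 for mitotic genes. Leaving out 1 array at a time moved these medians between 0.01 and 0.18 and between 0.06 and 0.14. Chaf1a had the smallest p (difference 0.29, 95% interval 0.05 to 0.54, limma adjusted p = 0.189). Gins1, another GINS subunit, was 9.03, 8.17 and 7.82 in nonirradiated vehicle arrays, 8.45, 8.17 and 8.77 with PTH, 8.45, 8.75 and 9.32 in irradiated vehicle arrays, and 8.75, 8.52 and 9.63 in irradiated PTH arrays. Irradiated and nonirradiated arrays overlapped, the first nonirradiated vehicle array being among the highest, and the difference was 0.50 (95% interval -0.04 to 1.04). Tpx2, which activates the Aurora A kinase, was 10.52, 10.53 and 10.37, then 10.44, 10.34 and 10.38 in nonirradiated vehicle and PTH arrays, and 10.43, 10.69 and 10.63, then 10.79, 10.61 and 10.39 in irradiated ones. It overlapped and differed by 0.16 (95% interval -0.04 to 0.36). All nonirradiated and all irradiated arrays were apart for 0 of 46 members, where 4.49% of all genes were. Intervals were within 2-fold for 44 of 46 members, where 94.6% of all genes were; the exceptions were Aurkb and Gins1. The closest approach to the threshold in any setting tried was Aurka without irradiated PTH replicate 3, with an averaged difference of 0.33 and a limma adjusted p of 0.0876.

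The interaction asks whether PTH acts differently in irradiated mice, and no member passed it. The S-phase median was -0.30 and the mitotic median 0.21. With sex as a term these medians were -0.0542 and 0.0746. Without both narrow-range arrays the S-phase median was -0.004. Cenpf means were 10.52 with vehicle and 10.30 with PTH in nonirradiated mice, and 10.27 and 10.67 in irradiated mice. Cenpf gave 0.61 (95% interval 0.10 to 1.13, limma adjusted p = 0.732), and 0.47 (unadjusted p = 0.052 in limma) without irradiated PTH replicate 3. Aurkb gave -1.13 (95% interval -2.62 to 0.35), and -0.37 without irradiated PTH replicate 3. Here 24 of 46 intervals lay within 2-fold, against 74.6% of all genes, so that the interaction was measured less precisely than the single contrasts.

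One array stood apart for many members. Irradiated PTH replicate 3 lay more than 0.5 below the mean of the other two arrays of its group for 10 of 22 S-phase genes, 5 of 24 mitotic genes and 16.86% of all genes. It lay more than 0.5 above for 2, 2 and 10.98%. For S-phase genes it was the lowest of the 12 arrays in 13 cases and the highest in 3, and for mitotic genes the lowest in 4 and the highest in 8, against 22.7% and 20.8% of all genes. Its value minus the mean of the other two was -2.28 for Aurkb, -1.83 for Gins2 and -1.56 for Mcm2. It was -1.28 for Chaf1b, the CAF-1 partner of Chaf1a, and -1.15 for Rrm2. In the other direction it was 0.997 for Gins1 and 0.78 for Cdk1. Low values on this array were thus more frequent among S-phase genes than among all genes, at 45.45% lower by more than 0.5. Among mitotic genes that share, 20.83%, was near that of all genes. The share of mitotic genes with their lowest value there, 16.7%, was below that of all genes. On this array the means of 6 of 13 cell type marker lists were the lowest of the 12. They were those of erythroid precursors (10.60), proliferating neutrophil precursors (8.36), monocytes and macrophages (8.58), stem and progenitor cells (7.03), osteoblasts and stroma (8.65) and endothelium (7.90). The mean of housekeeping genes was also lowest there, at 10.89. The part of these shifts in the S-phase values was not tested.

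**Figure D4:**
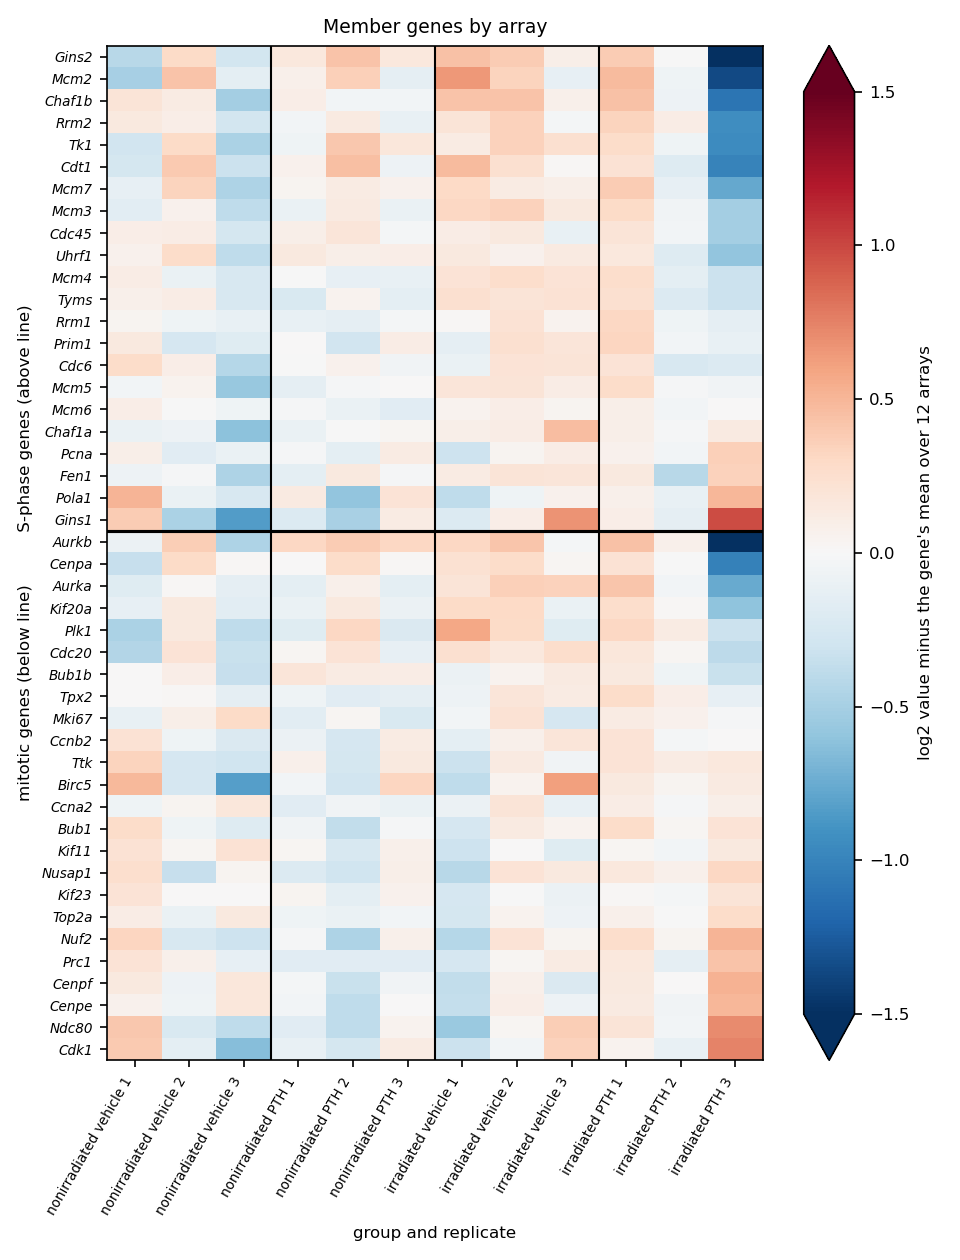
Colour gives each member's log2 value minus its mean over the 12 arrays, with arrays in columns by group and replicate, S-phase genes above the line and mitotic genes below. The last column, irradiated PTH replicate 3, is mostly blue among S-phase genes (13 of 22 at their lowest) and mixed among mitotic genes.

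For the groups not yet given, Mcm2 was 10.32, 10.60 and 10.11 in nonirradiated PTH arrays and 10.71, 10.18 and 8.89 in irradiated PTH arrays. Rrm2 was 11.58, 11.75 and 11.51 against 11.95, 11.73 and 10.69 in the same groups, and Mcm3 was 9.73, 9.97 and 9.73 against 10.12, 9.77 and 9.31. Irradiated PTH replicate 3 was the lowest of the 12 arrays for these 3 genes. Pcna was 12.35, 12.23 and 12.50 against 12.44, 12.33 and 12.73, and Mcm5 was 9.36, 9.48 and 9.50 against 9.78, 9.48 and 9.45. For Pcna that replicate was the highest of the 12 arrays, and for Mcm5 the highest was irradiated PTH replicate 1. Chaf1a was 8.54, 8.64 and 8.67 against 8.73, 8.63 and 8.78. Tyms was 9.86, 10.14 and 9.94 and Mcm4 was 10.52, 10.40 and 10.41 in nonirradiated PTH arrays. For Chaf1a, Tyms and Mcm4 all nonirradiated PTH arrays lay below all irradiated vehicle arrays. These groups differ in irradiation, treatment and share of female-pattern arrays, and their comparison was not among the contrasts. The share of all genes apart between them was not counted, so no result is drawn from this. Tk1 was 9.24, 9.46 and 9.35 in irradiated vehicle arrays and 9.38, 9.04 and 8.17 in irradiated PTH arrays, and Mcm6 was 10.84, 10.71 and 10.76 in the latter. Gins2 was 9.54, 10.24 and 9.67 in nonirradiated and 10.39, 10.33 and 10.03 in irradiated vehicle arrays, and Uhrf1 was 10.45, 10.66 and 10.01 against 10.54, 10.46 and 10.53. Cdt1 was 7.28, 7.94 and 7.23 in nonirradiated vehicle arrays. Tk1, Gins2, Uhrf1 and Cdt1 were also lowest on irradiated PTH replicate 3.

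Among mitotic genes, Top2a was 11.84, 11.63 and 11.87 in nonirradiated and 11.47, 11.78 and 11.65 in irradiated vehicle arrays. Cdk1 was 9.34, 8.80 and 8.31 against 8.62, 8.90 and 9.29, Cenpe was 10.74, 10.60 and 10.84 against 10.31, 10.77 and 10.59, and Nuf2 was 10.88, 10.32 and 10.24 against 10.14, 10.76 and 10.60. Cenpf was 10.58, 10.37 and 10.61 in nonirradiated vehicle arrays. For these 5 genes irradiated PTH replicate 3 was the highest of the 12 arrays. Bub1 was 10.93, 10.59 and 10.46 in nonirradiated and 10.41, 10.79 and 10.70 in irradiated vehicle arrays. Prc1 was 10.10, 10.37 and 10.47 and Mki67 was 12.26, 12.51 and 12.05 in irradiated vehicle arrays. All 3 overlapped between the vehicle groups. Cdc20 was 9.35, 9.52 and 9.20 in nonirradiated PTH and 9.49, 9.35 and 8.93 in irradiated PTH arrays, and Plk1 was 9.89, 10.37 and 9.85 against 10.38, 10.19 and 9.75. Both overlapped between these groups, and both were lowest on a nonirradiated vehicle array. Bub1b was 9.68, 9.82 and 9.90 in irradiated vehicle and 9.91, 9.70 and 9.43 in irradiated PTH arrays. Kif11 was 11.21, 11.14 and 11.33 in irradiated PTH arrays, overlapping its nonirradiated PTH values. Aurkb was 10.41, 10.88 and 10.04 in nonirradiated vehicle and 10.82, 10.88 and 10.82 in nonirradiated PTH arrays, and Aurka was 9.93, 10.15 and 9.93 in the latter. The 3 nonirradiated PTH arrays lay close together for Aurkb, and for Aurka they were all below the irradiated vehicle arrays. That comparison for Aurka was likewise not among the contrasts, and no share of all genes was counted for it.

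The remaining members were 5 S-phase genes and 7 mitotic genes. They were Mcm7 of the helicase, the licensing factor Cdc6, the helicase cofactor Cdc45, the primase Prim1 and Rrm1, the large subunit of ribonucleotide reductase. The mitotic ones were Birc5 of the passenger complex, the cyclin Ccnb2, the centromeric histone Cenpa, the motor Kif20a, the kinetochore protein Ndc80, the microtubule protein Nusap1 and the checkpoint kinase Ttk. Their differences in the single contrasts ran from -0.45, for Cenpa with PTH in irradiated mice, to 0.46, for Ndc80 with irradiation in PTH mice. Over the 12 arrays the steadiest member was Mcm6, with a range of 0.280, followed by Ccna2 with 0.354. The widest were Aurkb with 2.46 and Gins2 with 2.08. The median within-group SD of S-phase genes was 0.244 and of mitotic genes 0.226, against 0.206 for all genes. All 46 members were above a mean of 6 in every group, and the lowest value of any was 6.55, for Cdt1.

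Lists of other cell cycle genes held few calls. In the averaged contrast 6.1% of all genes were called and 17.3% were past an unadjusted p of 0.05. Of 44 other replication genes, 1 rose with irradiation averaged over treatments and 0 fell, with a median difference of 0.08, and of 59 other mitosis genes 0 passed the limma test, 8 were past an unadjusted p of 0.05, and the median was 0.13. Orc1, a subunit of the origin recognition complex, rose by 0.57 (95% interval 0.26 to 0.88, limma adjusted p = 0.0344). Orc1 was 9.37, 8.98 and 8.77, then 9.06, 8.91 and 9.12 in nonirradiated vehicle and PTH arrays, and 9.42, 9.98 and 9.72, then 9.82, 9.50 and 9.19 in irradiated ones. Its call held in 3 of 12 fits with an array removed, those without nonirradiated vehicle replicate 1, irradiated vehicle replicate 1 and irradiated PTH replicate 3, and a term for sex ended it (limma adjusted p = 0.0542). Of 31 genes of G1 control 0 passed the limma test in the averaged contrast and 5 were past an unadjusted p of 0.05. Of 11 replication-dependent histone genes 0 passed and 2 were past it. For irradiation in PTH mice, Rbl2, which encodes the pocket protein p130, fell by 0.48 (limma adjusted p = 0.0464), a call that held in 2 of 12 fits with an array removed.

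Several antiproliferative genes passed the test for irradiation. Of 19 genes of CDK inhibitors and antiproliferative factors, 3 rose and 2 fell averaged over treatments, with a median of -0.04; of all genes 6.1% were called. Btg1, an antiproliferative gene that lymphocytes express, was 9.55, 10.06 and 9.77 with vehicle and 9.41, 9.95 and 9.71 with PTH in nonirradiated mice, and 8.91, 8.77 and 8.70, then 8.47, 8.96 and 8.41 in irradiated mice. All 6 irradiated arrays were lower than all nonirradiated arrays. Btg1 fell by 1.04 (95% interval -1.33 to -0.75, limma adjusted p = 0.000531). Its call held in 12 of 12 fits with an array removed. The B cell genes fell alongside it, 9 of 10 in the averaged contrast with a median of -2.25, and 8 of 11 pro-B and pre-B cell genes fell with a median of -1.36. The part of B-lineage cells in the lower Btg1 was not tested.

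Ccng1, a target of p53, was 11.06, 10.57 and 10.80 with vehicle and 10.77, 10.46 and 10.91 with PTH in nonirradiated mice, and 11.03, 11.41 and 11.36, then 11.31, 11.26 and 11.54 in irradiated mice. Of the 6 irradiated arrays, 5 were above all nonirradiated arrays. It rose by 0.56 (95% interval 0.30 to 0.82, limma adjusted p = 0.0159), and its call was lost without irradiated vehicle replicate 2. Gadd45a, another p53 target that slows the cycle, rose by 0.47 (limma adjusted p = 0.0196), and lost its call without nonirradiated PTH replicate 1 and without irradiated vehicle replicate 2 or 3, and after quantile normalization was repeated. Cdkn2b, the CDK inhibitor p15, rose by 0.56 (limma adjusted p = 0.0130), and Ccng2, a cyclin linked to cell cycle arrest, fell by 0.44 (limma adjusted p = 0.0114). Both kept their calls in 12 of 12 such fits. With arrays centred on housekeeping genes, Ccng1, Cdkn2b and Gadd45a lost their calls. Cdkn1a, the p53 target p21, was not analysed here.

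**Figure D5:**
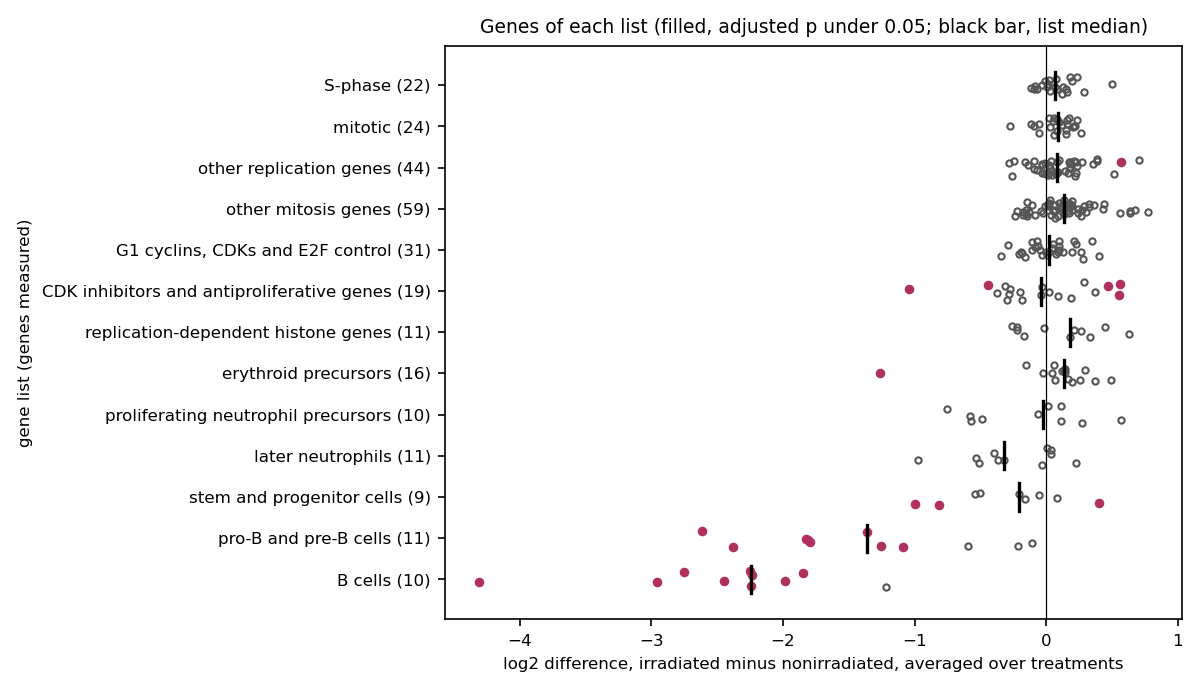
Each point is 1 gene's log2 difference of irradiated minus nonirradiated arrays averaged over treatments, by gene list with the number of genes measured; filled points passed an adjusted p of 0.05 and black bars are list medians. The member lists have no filled point, with medians of 0.07 and 0.09, while the B cell list lies far below 0 with a median of -2.25.

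Markers of other dividing marrow cells differed between lists in the averaged contrast, where 6.1% of all genes were called and 17.3% were past an unadjusted p of 0.05. Of 16 erythroid precursor genes, 1 fell and 0 rose, with a median of 0.14, and of 10 genes of proliferating neutrophil precursors 0 passed the limma test and 4 were past an unadjusted p of 0.05. Of 9 stem and progenitor genes, 1 rose and 2 fell, with a median of -0.21.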

How the data were processed

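RNA from whole bone marrow flush was amplified from 100 ng of total RNA to biotinylated cDNA, per the labels' protocols, and measured on 12 arrays. The authors' deposited values are on a log2 scale, read from the values and from the name RMA, which with affy and limma stands in the submitters' processing notes without versions. Whether all arrays were normalized together, and the genome build, are not given in the sources used here. Of 35556 table rows, 21789 had exactly 1 symbol in the annotation, 1621 several and 12146 none listed; 19938 genes remained, with the row of highest mean for the 999 genes with several rows.

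Group means of the 12 arrays were estimated by limma (version 3.58.1, R 4.3.3), with 4 groups (8 residual degrees of freedom, default empirical Bayes), with Benjamini-Hochberg adjustment over 19938 genes and a threshold of 0.05. Tables were made in Python 3.11.15. The script was tested on simulated data. Intervals are 95% intervals of the moderated fit. Members shown array by array are the 3 S-phase and 3 mitotic genes with the smallest unadjusted p in each single and the averaged contrast, and textbook markers of cycling cells, Mki67, Top2a, Cdk1, Aurkb, Mcm2, Mcm6, Pcna, Rrm2 and Tyms. Other genes named are those called in lists of pathways and cell types. Fen1 was shown in addition, after its values were seen, and the other members are given by range or difference. The members and lists were chosen with earlier results of these data known. Results were recomputed with a variance trend, array weights, other scalings (repeated quantile normalization, housekeeping centring), dim genes left out, rows averaged per gene, sex as a term, the replicate number as a block, fewer groups or arrays, and each array removed in turn. No label states a pairing by replicate number. Deviations from the group means, for the 18 pairs of arrays sharing a number, correlated at -0.65 to 0.60, so the arrays were not treated as paired over all groups. Between irradiated vehicle and irradiated PTH arrays all 3 such pairs correlated positively, at 0.45, 0.14 and 0.57, and a fit of these groups with the number as a block was added after seeing the data.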

Additional observations from a re-analysis of the deposited data

How the results depend on the processing

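None of the 46 members was called under the 22 alternatives of the single contrasts, the 21 of the averaged contrast and the interaction, or 1 more for PTH in irradiated mice that was chosen after seeing the data. Calls among all genes numbered 442 for irradiation in vehicle mice (211 to 1149 over the alternatives), 485 in PTH mice (200 to 1148) and 1216 averaged over treatments (822 to 2517). Array weights gave the highest of each, and the lowest of the first pair came, respectively, on removing replicate 2 of irradiated vehicle and on adding a term for sex. For PTH in nonirradiated mice 4 genes were called with only the groups compared and 0 otherwise; for PTH in irradiated mice and the interaction 0 were called by limma in every setting but the added block of the irradiated groups alone, which called 1 gene, no member. With all 12 arrays and no block, 759 and 1094 genes were past an unadjusted p of 0.05 in these contrasts. With the replicate number as a block, 0 members were called. Every group holds each number once, so this block cannot move a difference or a list median (S-phase 0.28 for irradiation in vehicle mice). It can change only the spread. In this limma fit 7 members were past an unadjusted p of 0.05 for irradiation in vehicle mice, 0 in PTH mice and 1 averaged over treatments. For PTH in nonirradiated and irradiated mice and the interaction they numbered 0, 4 and 6. The shares of all genes were, in the same order, 14.8%, 15.8%, 18.7%, 2.5%, 5.96% and 8.67%. With arrays centred on housekeeping genes the median of mitotic genes was -0.14 for irradiation in vehicle mice and 0.26 for PTH in irradiated mice, and the interaction medians were -0.0769 for S-phase and 0.43 for mitotic genes; this centring moved the median of all genes to -0.19, 0.14 and 0.24. Leaving out 1 array at a time gave -0.065 to 0.16 for mitotic genes and irradiation in vehicle mice. For S-phase genes it gave 0.15 to 0.36 in that contrast, -0.19 to 0.09 for irradiation in PTH mice, -0.39 to -0.12 for PTH in irradiated mice and -0.41 to -0.18 for the interaction. With sex as a term the S-phase median for PTH in nonirradiated mice was -0.18, and the interaction medians were -0.0542 and 0.0746. That term is estimated from the irradiated groups alone and cannot separate PTH from sex in nonirradiated mice. Without both narrow-range arrays the S-phase interaction median was -0.004, and with array weights the mitotic one was 0.011. The cause was not tested.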
